A study of Bos taurus with 11 samples.

Results

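The effect of prostaglandin E2 (PGE2) within serum-free in vitro production (IVP) was examined in the inner cell mass (ICM) of bovine day 7 blastocysts. All 8 serum-free pools of the 11 pools in the series were taken, 4 of the “SF” treatment group (pools 1, 3, 13 and 35) and 4 of the “SF + PGE2” treatment group (pools 5, 15, 27 and 37). The 3 serum-containing “SC” pools did not enter the comparison. All 37925 transcripts were considered, and the 19583 (51.6%) that passed a filter on low counts were tested. The filter removed 18342 transcripts, of which 8795 had no read assigned to them in any of the 8 pools.

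In both groups, cumulus-oocyte complexes matured for 22 hours in serum-free medium with epidermal growth factor and bovine serum albumin. They were fertilized with semen of a single bull and cultured without serum for in vitro development (IVD). “SF” oocytes received the vehicle DMSO during in vitro maturation (IVM) and in vitro fertilization (IVF). “SF + PGE2” oocytes received PGE2 in that vehicle during IVM and IVF, while the sample labels name the supplementation of IVD as well. The ICM were freed of trophoblast cells by immunosurgery and manual cutting, and each pool held 8 to 11 of them. The study took them from grade-I blastocysts, as graded by appearance. Production ran over 4 sessions that each included every condition, but the labels do not tie a pool to its session.

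PGE2 is a lipid mediator made from arachidonic acid by the cyclooxygenases and the prostaglandin E synthases. It acts through a family of G protein-coupled receptors, some of which raise cyclic AMP, and it is known in the ovary as a mediator of cumulus expansion around ovulation. The ICM is the group of cells inside the blastocyst that gives rise to the epiblast, the source of the fetus, and to the hypoblast. Markers of these lineages, of trophectoderm and of cumulus cells could not be looked up, because none of the transcript identifiers was paired with a gene name in the sources used here. The results are therefore given for transcripts and for classes of transcripts, and the ICM label was not checked against its markers.

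The sequencing depth of the groups overlapped. The total estimated count was 29603729 to 40619741 in the “SF” pools and 29816165 to 37825638 in the “SF + PGE2” pools. A “SF” pool held reads of 20675 to 22887 transcripts, and a “SF + PGE2” pool reads of 21651 to 22484. The 100 most abundant transcripts took 24.1% to 26.1% of the reads in “SF” and 23.7% to 25.4% in “SF + PGE2”. The mean fragment length, inferred from effective length, ranged from 426 to 482 bases in “SF” and from 439 to 492 bases in “SF + PGE2”. For none of these 4 properties did the difference pass an exact two-sided permutation test of 4 against 4 pools, with p from 0.486 to 0.971 and an adjusted p of 0.971 for each, where the smallest p the design allows is 0.0286.

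Pools SF 13 and SF 35 had the lowest median correlations with the other pools, SF 13 by a small margin. On the log2 scale, normalized counts of SF 13 and SF 35 correlated with each other at r = 0.778 over the tested transcripts, the lowest of all 28 pairs. Their median correlations with the other 7 pools were 0.812 and 0.803, against 0.818 to 0.838 for the remaining pools. SF 1 and SF 3 formed the closest pair, with r = 0.86. The 6 pairs within “SF + PGE2” had r from 0.802 to 0.84, and the 16 pairs that crossed the groups had r from 0.784 to 0.85. Each “SF + PGE2” pool was closest to SF 3, not to a pool of its own group. SF 1 and SF 35 were also closest to SF 3. These correlations are across transcripts, which share library and depth, and are given as a description.

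Principal components of the log2 normalized counts did not order the pools by treatment. The first component held 20.1% of the variance and placed SF 13 (score of 172) and SF 35 (score of -139) at its opposite ends, with all “SF + PGE2” pools between them at -45.6 to 39.2. The second component, with 18.5%, separated SF 13 and SF 35 (104 and 156) from the remaining 6 pools (-87.1 to -17.9). The remaining components tested, PC3 with 15.3% and PC4 with 13.05%, spread the “SF + PGE2” pools from -107 to 115 and from -91.7 to 151. The difference between the mean scores of the groups did not pass an exact two-sided permutation test on any of the 4 components (p of 0.857, 0.171, 0.771 and 0.714, lowest adjusted p = 0.686). Without SF 13 and SF 35, the exact test of 2 against 4 pools allows no p under 0.133 and so could not pass on any component.

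**Figure D1:**
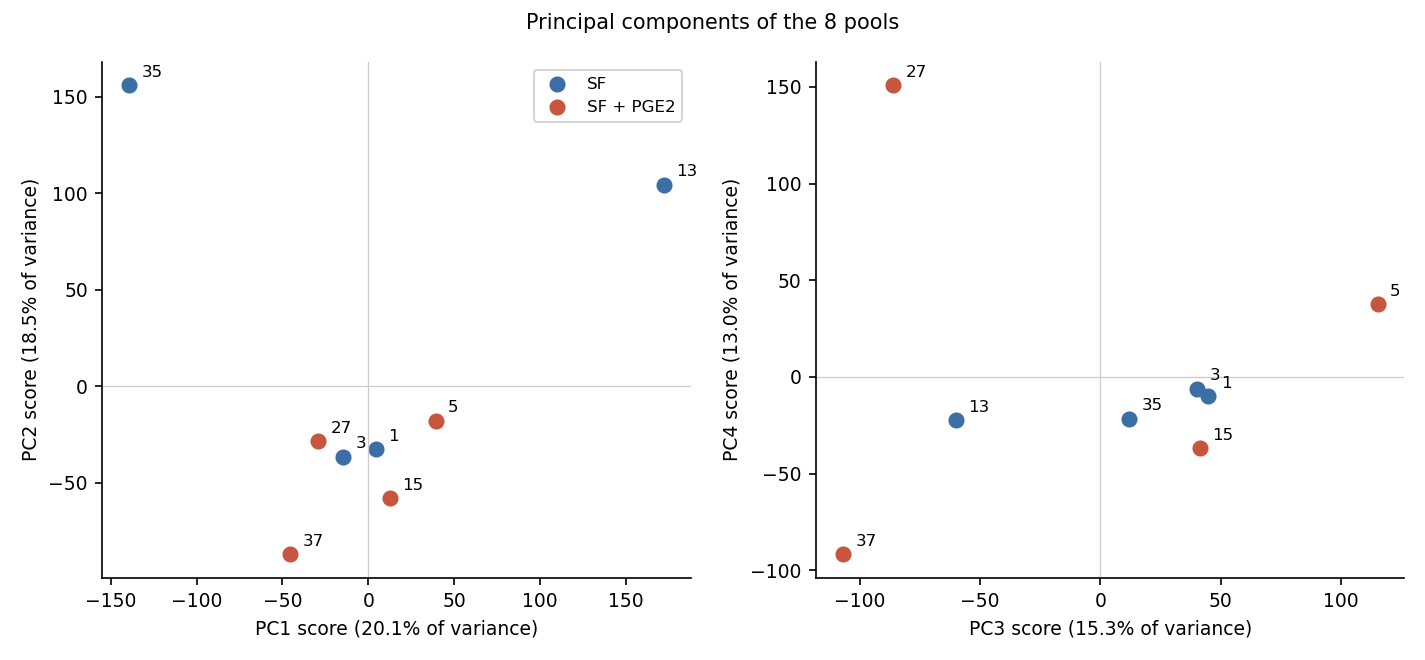
Scores of the 8 pools on principal components 1 and 2 (left) and 3 and 4 (right) of the log2 normalized counts of the tested transcripts, with the share of variance on each axis and the pool number beside each point. Pools SF 13 and SF 35 lie apart on the left panel, at 172 and -139 on the first component, and the “SF + PGE2” pools span the right panel.

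One transcript of 19583 (0.00511%) passed an adjusted p of 0.05 between “SF + PGE2” and “SF”. This was ENSBTAT00000002366.5, of 4888 bases, which was present in every “SF” pool and listed at 0 in every “SF + PGE2” pool. Its normalized count was 666 in SF 1, 411 in SF 3, 409 in SF 13 and 473 in SF 35, a mean of 490 ± 121 (SD, n = 4). Its estimated count was 0 in pools 5, 15, 27 and 37. Lack of overlap was part of the rule that chose the named transcripts, this one included. This transcript passed the filter on low counts through the “SF” pools alone. The 4 “SF” pools lay close together, SF 13 and SF 35 included. The level was at least 649-fold lower in “SF + PGE2” (edgeR's quasi-likelihood test, adjusted p = 0.0302). This bound takes an estimated count of 0 as 3 reads over the group. It does not cover the spread between pools or reads that were divided between transcripts of similar sequence. The normalized count is the number of reads assigned to a transcript, scaled for the depth of the pool and for effective length.

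That call was lost when any single pool was left out, with an adjusted p of edgeR's test between 0.0587 and 0.366 over the 8 fits, and without both SF 13 and SF 35 (adjusted p = 0.927). These fits had fewer pools. In them the transcript was still at 0 in each “SF + PGE2” pool. It was at 409 or more, on the scale of all 8 pools, in each “SF” pool that remained. With no pool left out, the call was also lost with limma-voom (adjusted p = 0.626) and with edgeR's newer quasi-likelihood method (adjusted p = 0.293). The same held with all 11 pools in the fit (edgeR, adjusted p = 0.0829). Why the call was lost was not tested. The call was kept under 6 of 19 alternative analyses as the only call, while 12 of them called no transcript and 1, DESeq2, called 18 (0.0919% of those tested).

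The other transcripts named here did not pass the adjusted threshold of edgeR's test, and their values are given as measured. They were chosen by small p among transcripts whose groups did not overlap, so the lack of overlap followed from the choice. ENSBTAT00000075102.1, of 3519 bases, had no read assigned to it in any of the 4 “SF” pools. Its normalized count was 142 in pool 5, 233 in pool 15, 93.1 in pool 27 and 68.6 in pool 37, a mean of 134 ± 72.7 (SD, n = 4). The mean was at least 182-fold higher than in “SF” (edgeR, adjusted p = 0.9997).

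ENSBTAT00000011667.6, of 4313 bases, was also listed at 0 in all 4 “SF” pools. Its normalized count was 220 in pool 5, 199 in pool 15, 42.4 in pool 27 and 13.9 in pool 37, a mean of 119 ± 106 (SD, n = 4). Pools 5 and 15 were high and pools 27 and 37 low, and the mean was at least 161-fold higher than in “SF” (edgeR, adjusted p = 0.9997). The bound is on the measured mean and does not cover this spread between pools.

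ENSBTAT00000072256.1, of 1671 bases, was present in all 8 pools. Its normalized count was 3912 in SF 1, 4533 in SF 3, 4082 in SF 13 and 3855 in SF 35, a mean of 4095 ± 307 (SD, n = 4). It was 2110 in pool 5, 2393 in pool 15, 1599 in pool 27 and 2998 in pool 37, a mean of 2275 ± 583 (SD, n = 4). The highest “SF + PGE2” pool was at 77.8% of the lowest “SF” pool, and the mean in “SF + PGE2” was 55.6% of that in “SF”. The log2 fold change was -0.85 with an SE of 0.19 and a 95% interval of -1.27 to -0.42 (edgeR, adjusted p = 0.9997).

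None of these 4 transcripts had whole estimated counts in all 8 pools, so a portion of their reads was divided by Salmon between transcripts of similar sequence. In such a division a transcript can be listed at 0 while reads of its gene go to another isoform, and whether that applies here was not tested. In bulk RNA, fewer cells that hold a transcript and less of it per cell cannot be told apart.

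**Figure D2:**
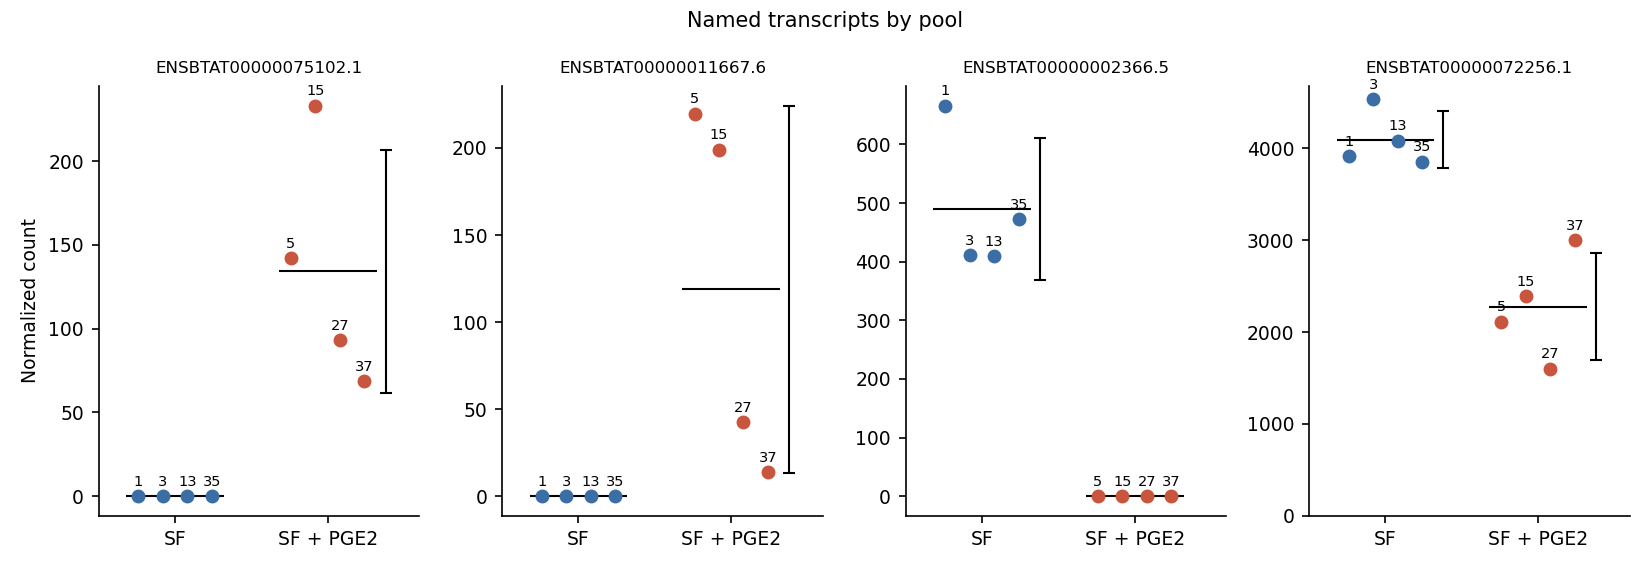
Normalized counts of the 4 named transcripts in each of the 4 “SF” and 4 “SF + PGE2” pools (points, with pool numbers), with the group mean (line) and SD (bar), on an axis from 0 that differs between panels. No panel shows an overlap between the groups, by the rule that chose these transcripts. ENSBTAT00000002366.5 lies at 409 to 666 in “SF” and at 0 in “SF + PGE2”.

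Presence in all pools of one group with absence from the other was rare. At a normalized count of at least 10 in every pool of the one group, 7 transcripts were at 0 throughout “SF + PGE2” and 7 throughout “SF”, together 14 transcripts (0.0715% of those tested). Their mean in the group that held them ranged from 13 to 490 with a median of 52. These transcripts passed the filter through one group alone, so that their difference followed from their selection. Of the 14, 4 (28.6%) had whole estimated counts in all pools, beside 26.8% of all tested transcripts. When SF 13 and SF 35 were left out, 39 transcripts were at 0 in the remaining 2 “SF” pools and present in all “SF + PGE2” pools, and 7 the other way. Absence from 2 pools is an easier condition than absence from 4, so these counts are not compared with each other or with those of all 8 pools.

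Absence of a transcript from some of the pools was also counted, with no minimum set in the others. Among the tested transcripts, 4076 (20.8%) were listed at 0 in at least one pool, and so were 1694 of the 15653 (10.8%) whose mean was 50 or more. Pool SF 13 listed 1582 tested transcripts at 0 and SF 35 listed 1396, whereas the other 6 pools listed 640 to 1062. Transcripts with at least 50 normalized counts in the 7 other pools were at 0 in SF 35 in 105 cases and in SF 13 in 75 cases, against 10 to 40 cases in each of the other 6 pools. With a minimum of 10 reads in every pool, 15099 transcripts were detected throughout “SF” and 15646 throughout “SF + PGE2”. The 14150 shared by all 8 pools made up 93.7% of the “SF” set and 90.4% of the “SF + PGE2” set.

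At an unadjusted p under 0.05 in edgeR's test, 578 transcripts (2.95% of those tested) were found, 264 (1.35%) of them higher and 314 (1.6%) lower in “SF + PGE2”. If no transcript differed, this threshold would pass a share of 0.05 by chance, and the share found in this test was below that. The pools of the groups did not overlap for 281 higher (1.43%) and 313 lower (1.6%) transcripts. Together these were 3.03% of those tested, where random assignment of 4 against 4 pools gives no overlap with a probability of 0.0286. A set was then chosen by an unadjusted p under 0.05, a mean of at least 50, no overlap and reads in all 8 pools. Its differences therefore followed in part from its selection. In it 109 transcripts (0.557% of those tested) were higher, by 1.23- to 6.23-fold with a median of 1.84-fold. In the same set 153 (0.781% of those tested) were lower, by 1.16- to 4.08-fold with a median of 1.38-fold. None of either set passed the adjusted threshold, since the second lowest adjusted p of edgeR's test was 0.9997. The higher transcripts of this set had a median abundance of 472 normalized counts and the lower ones of 2246.

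The balance of directions was not stable. Higher transcripts made up 45.7% of those at an unadjusted p under 0.05 in edgeR's test of all 8 pools. With the same pools they were the larger part in limma-voom (500 higher and 420 lower, 54.3%), without a filter on low counts (625 and 546, 53.4%) and with edgeR's newer quasi-likelihood method (594 and 452, 56.8%). When one pool was left out, the balance moved with the group that was made smaller. Higher transcripts made up 56.7% to 61.2% in the 4 fits without a “SF” pool and 37.5% to 41.5% in the 4 fits without a “SF + PGE2” pool, with 20359 to 20567 transcripts tested in place of 19583. Without SF 13 and SF 35, 911 transcripts of 21865 were at an unadjusted p under 0.05, 537 higher and 374 lower, and no transcript passed the adjusted threshold.

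**Figure D3:**
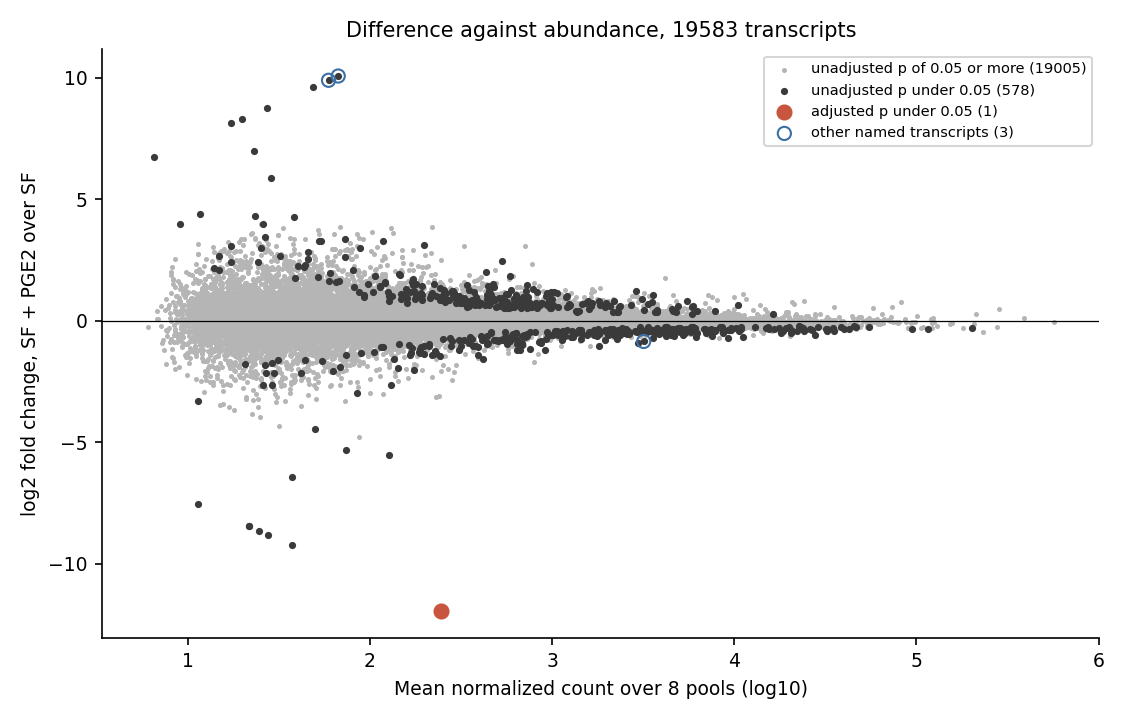
The log2 fold change of “SF + PGE2” over “SF” against the log10 mean normalized count for each of the 19583 tested transcripts, with darker points for an unadjusted p under 0.05 (578), a filled red point for ENSBTAT00000002366.5 and open circles for the other named transcripts. The cloud narrows with abundance, and 14 of the 19 transcripts beyond 5 in either direction were at 0 throughout one group, for which the fitted fold change has no set size.

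Most differences between the groups were small. The median absolute log2 fold change over all tested transcripts was 0.27, and the median log2 fold change was 0.01, with 9925 transcripts (50.7%) on the side of “SF + PGE2”. A fitted change of more than 2-fold in either direction was found for 2121 transcripts (10.8%), 1331 higher and 790 lower. This size is to be read against the spread between pools of the same group. The median SD of the log2 normalized count was 0.54 in “SF” and 0.50 in “SF + PGE2”, and the median absolute difference between the group means was 0.30. The SD was larger in “SF” for 54.6% of the transcripts. Without SF 13 and SF 35, the median SD of the remaining 2 “SF” pools was 0.28. These were the closest of all pairs, and an SD of 2 values has a lower median than one of 4, so this value is not comparable with that of “SF + PGE2”.

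A transcript that misses the threshold is not shown to be equal in both groups, so the 95% interval of its log2 fold change was set against a 2-fold change. For 7417 transcripts (37.9%) the whole interval lay within 2-fold. This share rested on abundance. None of the 3930 transcripts with a mean under 50 had an interval within 2-fold, and 1348 of 8137 (16.6%) did at 50 to 500. At 500 to 5000 it was 4782 of 6159 transcripts (77.6%), and at 5000 or more 1287 of 1357 (94.8%). The median half-width of the interval fell over these classes from 2.90 to 1.22, 0.54 and 0.36 on the log2 scale. In the 2 lower classes, the half-width of the median transcript was larger than a 2-fold change.

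**Figure D4:**
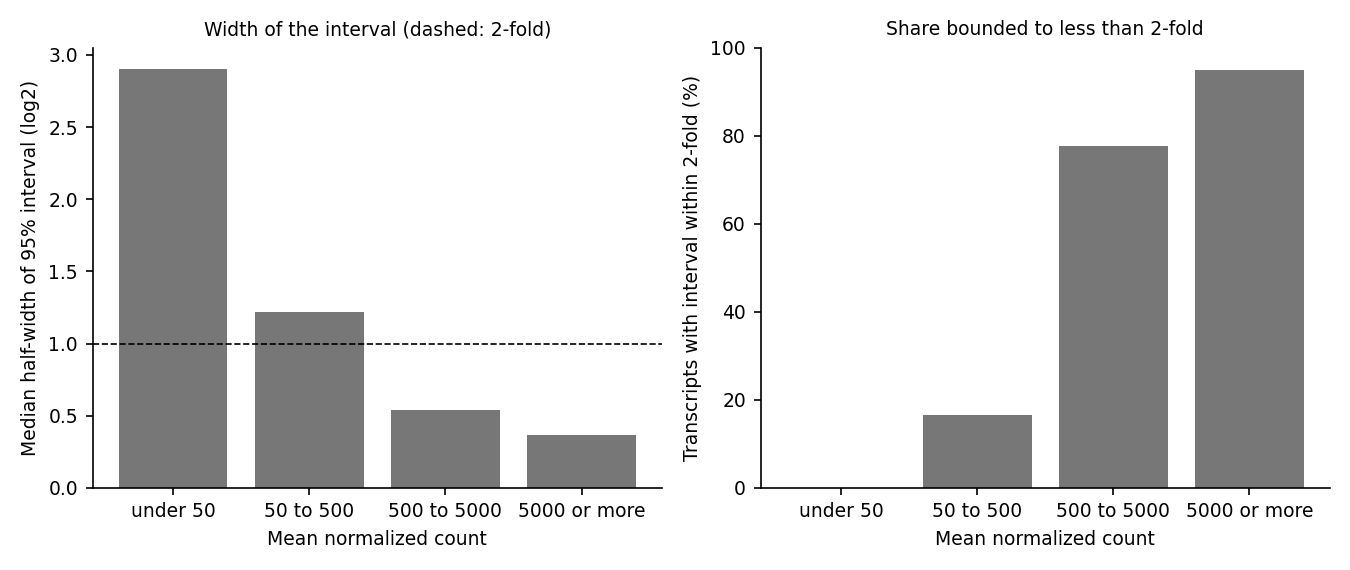
Median half-width of the 95% interval of the log2 fold change (left, dashed line at 1, a 2-fold change) and the percentage of transcripts whose interval lies within 2-fold (right), by class of mean normalized count over the 8 pools. The half-width falls from 2.90 under a mean of 50 to 0.36 at 5000 or more, and the percentage rises from 0 to 94.8%.

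The most abundant transcripts leaned lower in “SF + PGE2”. In the class with a mean of 5000 or more, the median log2 fold change was -0.10, and 79 transcripts were lower and 8 higher at an unadjusted p under 0.05 of edgeR's test, together 6.41% of the class beside 2.95% of all tested transcripts (1.35% higher and 1.6% lower). In the class of 500 to 5000 the median was -0.03, with 156 lower and 108 higher (4.29% of the class). The direction was the other in the class of 50 to 500, with a median of 0.08, 60 lower and 121 higher (2.22% of the class). Under 50 the median was 0.09, with 19 lower and 27 higher (1.17% of the class). The half-width of the interval fell with abundance, so a larger share in a class does not by itself show larger differences. Of the 100 most abundant transcripts 70 were lower and 30 higher, with log2 fold changes from -0.45 to 0.78. Of these 100, 9 were at an unadjusted p under 0.05, all lower, beside 1.6% lower among all tested transcripts, and none passed the adjusted threshold of edgeR's test. A 95% interval within 2-fold was found for 95 of them.

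This lean was not the same in every pool. Relative to the mean of the 8 pools, the median deviation of the class of 5000 or more was 0.04 in SF 1, -0.02 in SF 3, 0.04 in SF 13 and 0.16 in SF 35. In “SF + PGE2” it was -0.05 in pool 5, -0.08 in pool 15, 0.00 in pool 27 and -0.05 in pool 37. SF 35 was the highest, and SF 3 and pool 27 brought the groups to overlap. The median log2 fold change of the class was -0.06 without SF 35 and -0.05 without SF 13 and SF 35. It stayed between -0.12 and -0.09 when any other single pool was left out and between -0.11 and -0.10 with other scaling factors or without the length offset.

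The median fold changes of short and long transcripts had opposite signs. With transcripts split into 3 classes of similar size by length, those under 1680 bases had a median log2 fold change of -0.05, with 136 lower and 39 higher at an unadjusted p under 0.05 of edgeR's test (2.68% of the class). Those of 2830 bases or more had a median of 0.07, with 60 lower and 125 higher (2.83% of the class). Neither share was above the 2.95% of all tested transcripts. SF 13 and SF 35 lay at the ends of this lean. The median deviation of the long class was -0.11 in SF 13 and -0.03 in SF 35, and it was 0.08 and 0.24 in SF 1 and SF 3 and 0.03 to 0.21 in the “SF + PGE2” pools. In the short class SF 13 and SF 35 were the highest, at 0.13 and 0.12, and the other pools lay between -0.03 and 0.09. Without them, the median log2 fold change was 0.03 for short and 0.00 for long transcripts, so that the order of the classes turned.

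**Figure D5:**
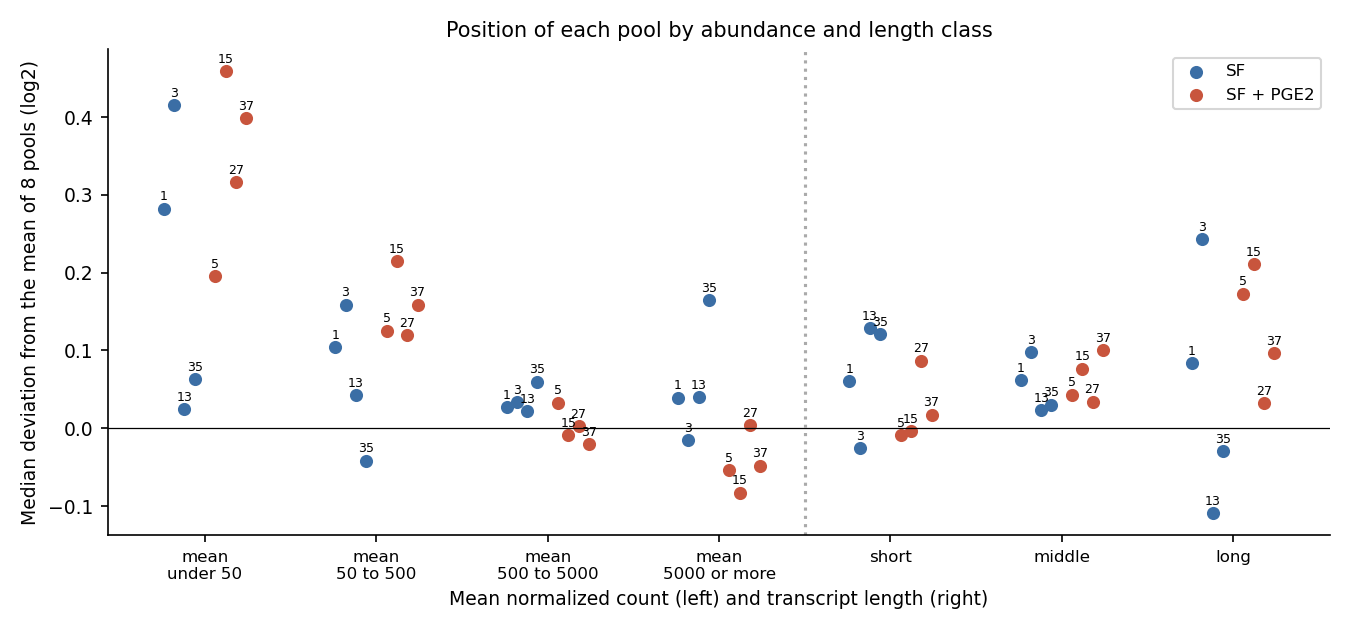
Median deviation of each pool from the mean of the 8 pools, on the log2 scale, by class of mean normalized count (left of the dotted line) and by class of transcript length (right), with pool numbers beside the points. SF 35 is highest among transcripts with a mean of 5000 or more (0.16), and SF 13 and SF 35 are lowest among long transcripts and highest among short ones.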

How the data were processed

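RNA of pooled bovine ICM was amplified with SMART-Seq v4, and libraries were made with Nextera XT, a kit that does not keep strand. The authors mapped reads with Salmon (1.1.0 in the submitters' notes) to Ensembl transcripts of ARS-UCD1.2, with settings not given in the sources read. The deposited values per transcript are Salmon's estimated counts, not normalized, and TPM values, scaled by effective length. The notes also name DESeq2 (1.26.0), whose output was not used here.

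Estimated counts of the 8 serum-free pools were rounded to whole numbers, filtered by filterByExpr and tested per transcript, two-sided, with edgeR 4.0.16 (quasi-likelihood, robust, R 4.3.3), TMM scaling, an offset for effective length and Benjamini-Hochberg adjustment. Tested transcripts held 99.8% to 99.9% of the estimated counts. Their lowest mean estimated count was 6.38, and the highest among those left out was 222. The 95% interval uses the SE of the fit and a t quantile at the moderated degrees of freedom. Log2 normalized counts have 1 added. Bounds on folds set 3 reads over a group listed at 0 throughout. They cover counting error only, as PCR copies cannot be told from molecules. They do not cover the spread between pools or the division of reads between transcripts. Mean fragment length is the median of length minus effective length over the longer transcripts of a pool, so it is inferred and not measured. Whole estimated counts lie within 0.0005 of a whole number. Exact tests used scipy 1.17.1. The scripts were tested on simulated data.

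The alternatives tried were limma-voom (limma 3.58.1), DESeq2 1.42.0, all 11 pools, other scalings and filters, no length offset and each pool left out. Fits without SF 13 and SF 35, edgeR's newer quasi-likelihood method and classes by abundance and length were added after the data were seen. The comparison, lists and rule for named transcripts were chosen with earlier results of these data known. That rule took up to 2 transcripts in each direction, those with the smallest p whose groups did not overlap and whose mean was 50 or more. Tests of genes, gene lists and markers were not run, because 0 of 37925 identifiers matched a gene table. The pools hold different ICM, but the session of each is not given. The tests therefore treat the pools as independent, without pairing by session. The p-values of edgeR's test set a difference between groups against the spread between these pools.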

Additional observations from a re-analysis of the deposited data

Results flagged for a closer look

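Both transcripts named as higher in “SF + PGE2”, which were listed at 0 in every “SF” pool, were also present in “SC” pools, which the comparison did not use. On a scale set over all 11 pools, ENSBTAT00000075102.1 had a normalized count of 306 in SC 23 and 297 in SC 33, and it was listed at 0 in SC 25. ENSBTAT00000011667.6 had 269 in SC 23 and was listed at 0 in SC 25 and SC 33. The difference between “SC” and “SF” was not tested here.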

How the results depend on the processing

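No paired analysis was possible because the replicate numbers of “SF” and “SF + PGE2” have none in common and no label ties pools to sessions. The count past an adjusted p of 0.05 (1 in edgeR's test) was 0 with all 11 pools in the fit, with limma-voom, with each of the 8 pools left out (0 to 0), without SF 13 and SF 35 and with edgeR's newer quasi-likelihood method, and it was 18 with DESeq2. Beside these 0 counts, 853, 920, 486 to 821, 911 and 1046 transcripts were at an unadjusted p under 0.05, and without a filter on low counts 1171 of 29100 were. Of the 18 transcripts called by DESeq2 (0.0919%), 12 were at 0 throughout one group, and the 4 named transcripts were among them. The adjusted p of ENSBTAT00000002366.5 ranged from 1.58e-20 (DESeq2) to 0.927 (without SF 13 and SF 35) and was under 0.05 in 7 of 19 alternatives. ENSBTAT00000072256.1 kept its direction in its 16 alternatives, with an adjusted p of 0.0497 in DESeq2 and over 0.05 in the others. Leaving out 1 pool gave 30.7% to 35.04% of transcripts with an interval within 2-fold and a median absolute log2 fold change of 0.28 to 0.32. Transcripts at 0 in one group and present throughout the other numbered 2 at a minimum of 50 and 46 without SF 13 and SF 35, where absence from 2 “SF” pools was enough. The median SD in “SF” was 0.28 without those pools, over 2 values in place of 4, and the median log2 fold change of short transcripts turned to 0.034. Of 171 values under alternatives, 135 kept their direction and their side of the threshold or stayed within the limits set for a change. For the others the cause was not tested. Planned fits of genes were not run, since no table paired identifiers with genes.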

Other observations

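Both transcripts named as lower in “SF + PGE2” were measured in “SC” as well, on the scale set over all 11 pools. ENSBTAT00000002366.5, with no read assigned to it in “SF + PGE2”, had a normalized count of 1030.5 in SC 23, 141 in SC 25 and 656 in SC 33. ENSBTAT00000072256.1 had 477 in SC 23, 890 in SC 25 and 1994 in SC 33.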
